A study of Mus musculus with 4 samples.

Results

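The genes described here encode the proteins of the mitochondrial ribosome. They were taken by name, as every row of the count table whose mouse symbol starts with Mrpl or Mrps and a digit, without pseudogenes, which gave 78 of the 53465 genes in the table: 49 named for the large subunit (Mrpl) and 29 for the small subunit (Mrps). A gene was kept when at least 2 libraries held at least 10 counts, and 77 genes passed, each of them in both groups of libraries. The gene left out was Mrpl53, with 0 counts in every library (a count of 0 allows up to 3). Of its annotated exonic bases, 88.0% are shared with the overlapping gene Gm42688 on the same strand, so its reads could have been assigned elsewhere or dropped by the counting, which was not tested.

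The mitochondrial ribosome, or mitoribosome, translates the few messenger RNAs made from mitochondrial DNA, which encode core subunits of the respiratory chain and the ATP synthase. Its 2 ribosomal RNAs are mitochondrial, while all of its proteins are encoded in the nucleus, made in the cytosol and imported. Some of the proteins descend from those of bacterial ribosomes, and others were added during the evolution of mitochondria. The small subunit reads the messenger RNA, and the large subunit joins the amino acids and passes the new chain through an exit tunnel to the inner membrane.

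RNA was measured in 4 libraries of B16-F10, a pigmented mouse melanoma cell line. All cells were fluorescent, had been infused into zebrafish, were recovered and were then cultured in IMDM medium with 10% FBS. In 2 libraries (extravasated_1 and extravasated_2) the cells were marked as having left the vessels, and in 2 (not_extravasated_1 and not_extravasated_2) as not having done so, which the series names as the control. The growth text describes extravasated cells for all 4 libraries, the sample titles hold a number that is the same within a group and differs between groups, and an effect of what it numbers cannot be told apart from extravasation. The labels name no separate cultures within a group, so a p-value here reflects only how far these libraries differ, which may be technical. Bulk RNA was measured after culture, so fewer expressing cells and less RNA per cell cannot be told apart.

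Library totals ran from 11705904 to 19674733 counts, and the lowest count of any tested member in any library was 62. The libraries of a group differed by more than counting noise, with a chi-square per degree of freedom of 18.2 in the not_extravasated and 11.0 in the extravasated libraries. All 7 pigment cell markers examined were expressed, at a summed 23904 and 28884 CPM (read counts relative to library size, after scaling by TMM factors) in the not_extravasated and 29901 and 30903 CPM in the extravasated libraries. Of these markers, Pmel (0.76 on the log2 scale) and Sox10 (0.77) rose while Mitf (-1.20) and Tyr (-0.60) fell in the extravasated libraries. Mlana (0.47), Dct (0.26) and Tyrp1 (-0.20) were not called. These calls depended on the correction for transcript GC content and length used further on. With it Tyr turned and was called higher (0.77, adjusted p = 0.0471), and Mlana was also called higher (0.74, adjusted p = 0.0297). Pmel (0.42), Sox10 (0.28) and Mitf (-0.11) kept their direction but were not called. Dct (0.31) and Tyrp1 (0.43) were not called either. Other forms of the correction, also used further on, gave other calls. Tyr was not called with the longest transcript (0.75), GC content alone (0.59) or the coding sequence (0.29). With the coding sequence Pmel (0.65) and Tyrp1 (0.42) were called higher, Mitf (-1.15) lower, and Mlana (0.24) was not called. With GC content alone Pmel (0.45), Mlana (1.04) and Tyrp1 (0.49) were called higher. Sox10 and Dct were called under none of them. Immune markers summed to 3.63 to 4.69 CPM, endothelial markers to 0.0868 to 0.984 CPM, epithelial markers to 0.637 to 1.16 CPM and fibroblast markers to 6.42 to 8.27 CPM over the 4 libraries. Of these markers, Ptprc, Cd3e, Kdr, Cdh5, Krt8 and Epcam had no count in any library. The others did, with 50 to 76 counts for Cd68, 8 to 22 for Cdh1 and 1 to 13 for Pecam1. Among the fibroblast markers Col1a1 rose (0.83) and Pdgfra fell (-1.46), and Col3a1 had at most 1 count. Neither Col1a1 nor Pdgfra was called with the GC and length correction.

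Mitoribosomal protein genes were mostly higher in the extravasated libraries. Their summed level was 3912 and 3665 CPM in the not_extravasated libraries and 4973 and 5171 CPM in the extravasated libraries. The groups did not overlap, and their means were 3789 ± 175 and 5072 ± 141 CPM (SD, n = 2 each), a ratio of 1.34. The ratio was 1.34 for the large subunit and 1.34 for the small subunit. The summed level of large subunit genes was 1.85, 1.83, 1.78 and 1.88 times that of small subunit genes in not_extravasated_1, not_extravasated_2, extravasated_1 and extravasated_2, so the balance between the subunits overlapped between groups.

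Of the 77 genes tested with edgeR's quasi-likelihood test, 40 rose and 2 fell in the extravasated libraries at a Benjamini-Hochberg adjusted p under 0.05. Over all 12320 tested genes, 19.1% were called higher and 25.9% lower. For the large subunit, 27 of 48 rose and 2 fell, with a median log2 fold change of 0.45. For the small subunit, 13 of 29 rose and 0 fell, with a median of 0.37. The median over all tested genes was -0.02, and the median over the 77 mitoribosomal genes was 0.41. Both extravasated libraries stood above both not_extravasated libraries for 61 of the 77 genes and below them for 6, beside 37.3% and 39% of all tested genes. The remaining 10 genes overlapped between the groups. Without extravasated_2 the number called higher was 11, beside 4.29% of all genes tested in that fit, and without extravasated_1 it was 31, beside 12.7%. In both cases 0 were called lower, beside 10.5% and 15.1%. Without not_extravasated_1 the counts were 40 and 2, beside 21.5% and 27.3%, and without not_extravasated_2 they were 35 and 3, beside 19.4% and 28.1%.

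**Figure D1:**
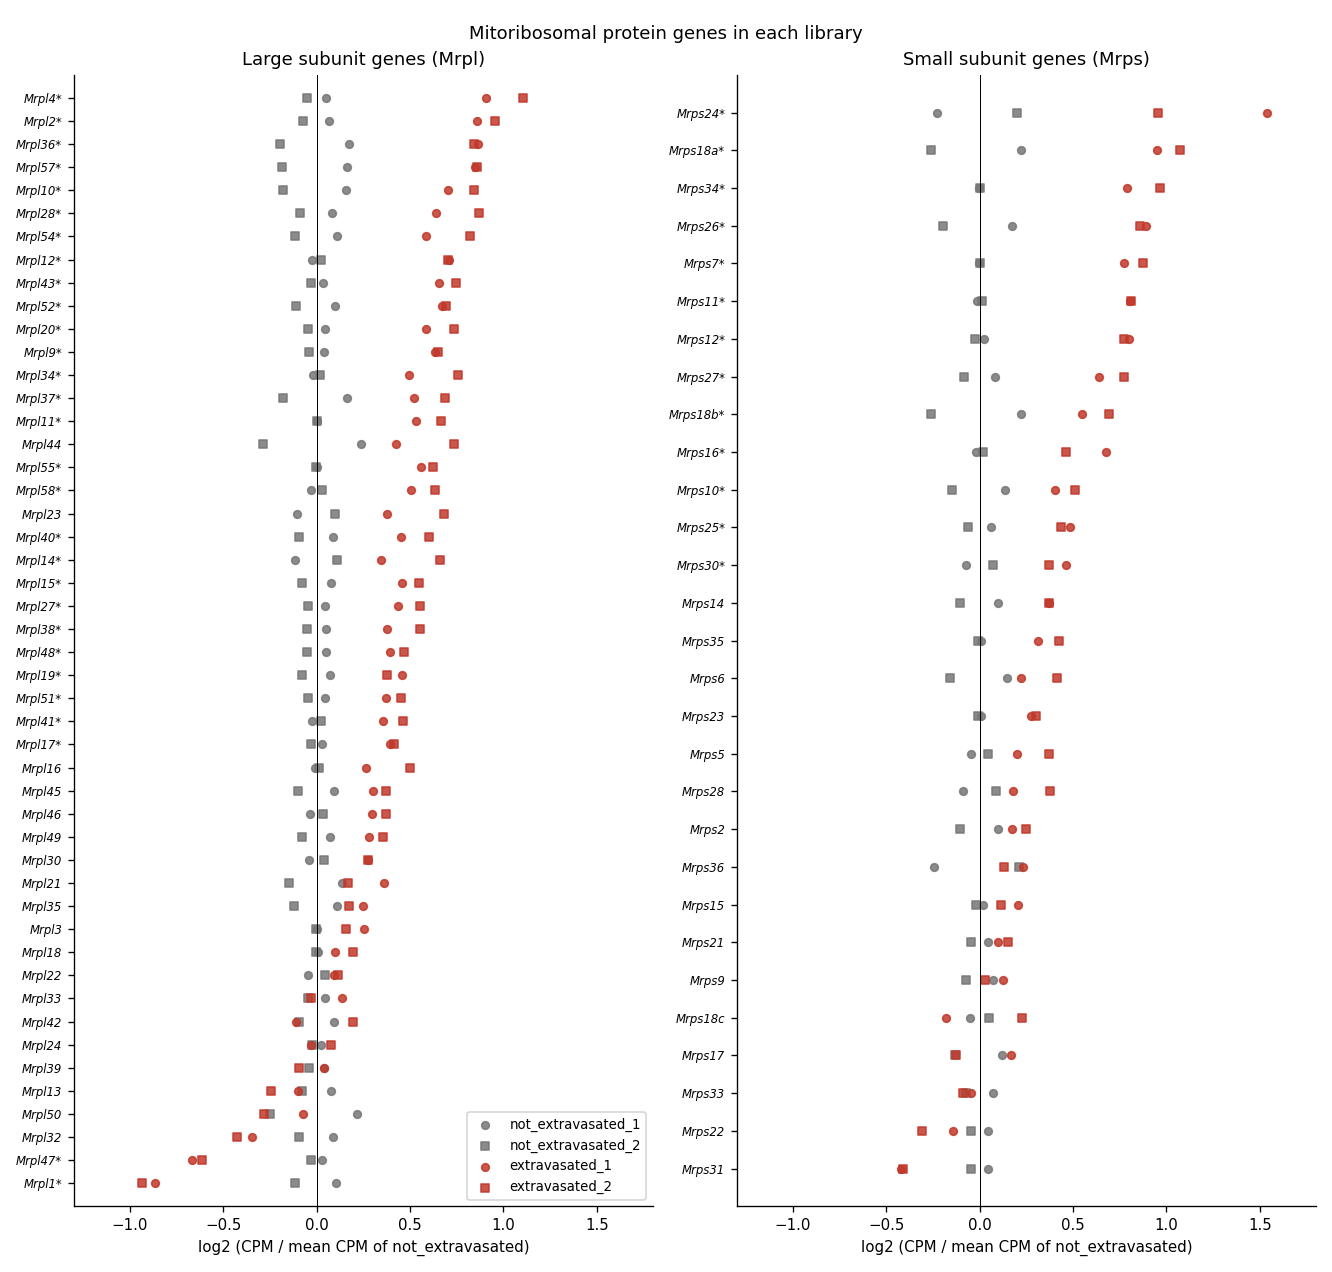
Level of each of the 77 tested genes in each library, as log2 of its CPM over the mean CPM of the not_extravasated libraries (horizontal axis), with large subunit genes on the left and small subunit genes on the right; an asterisk marks an adjusted p under 0.05. The extravasated libraries (red) lie to the right of both not_extravasated libraries (grey) for 61 genes, and to the left for 6.

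The spread within a group was small beside most of these differences. The median absolute log2 difference between the libraries of a group, over the 77 genes, was 0.124 for not_extravasated and 0.104 for extravasated. Mrpl44 differed most between the not_extravasated libraries, by 0.53, and Mrps24 differed most between the extravasated libraries, by 0.58. Mrpl44, whose protein sits near the tunnel exit, stood at 44.7 and 31.0 CPM against 50.8 and 63.1 CPM in the extravasated libraries, and its log2 fold change of 0.60 was not called (adjusted p = 0.0509).

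Among the 8 highest log2 fold changes, 4 were of genes named for each subunit. Mrps24, the mitochondrial counterpart of a bacterial protein at the messenger RNA entry channel (ENSMUSG00000020477.10, chromosome 11, 5703983 to 5715680, minus strand), stood at 24.0 and 32.3 CPM in the not_extravasated and at 81.8 and 54.6 CPM in the extravasated libraries. The extravasated libraries were both higher but lay far from each other. The log2 fold change was 1.27 ± 0.239 (SE; edgeR quasi-likelihood test, adjusted p = 0.00692), or 2.41-fold. It shares 15.4% of its exonic bases with Urgcp on the same strand.

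Mrps18a (chromosome 17, 46110986 to 46128910, plus strand) stood at 32.0 and 23.0 CPM against 53.1 and 57.9 CPM, a log2 fold change of 1.02 ± 0.188 (SE, adjusted p = 0.00502). Mrpl4, a protein that in bacteria lines the exit tunnel (chromosome 9, 21002738 to 21008839), stood at 40.5 and 37.7 CPM against 73.3 and 84.1 CPM, and Mrpl2, a protein next to the peptidyl transferase centre (chromosome 17, 46646229 to 46650139), at 48.7 and 44.2 CPM against 84.1 and 90.2 CPM. Both extravasated libraries were above both others for each of these genes. Their log2 fold changes were 1.01 ± 0.143 and 0.91 ± 0.135 (SE, adjusted p = 0.00204 and 0.00237).

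Mrps34, a small subunit protein found only in mitochondria and needed for the stability of that subunit, rose from 30.6 and 30.8 CPM to 53.1 and 60.0 CPM, by 0.88 on the log2 scale. Its exons overlap those of Nme3 on the same strand over 37.0% of bases and those of Mapk8ip3 on the opposite strand over 63.4%, so its count is uncertain where counting could split reads. Mrps26 rose from 58.2 and 45.0 CPM to 95.8 and 93.7 CPM. Mrpl36 and Mrpl57, among the smallest proteins of the large subunit, rose by 0.86 each, Mrpl36 from 14.9 and 11.6 CPM to 24.2 and 23.8 CPM, and Mrpl57 from 23.7 and 18.6 CPM to 38.1 and 38.3 CPM. Without extravasated_2, Mrpl36 and Mrpl57 missed the threshold at log2 fold changes of 0.91 and 0.90 (adjusted p = 0.0650 and 0.0502).

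The 5′ ends of these genes are shown because several of the risers, Mrps24, Mrps18a and Mrpl36 among them, carry the same letters there. Mrpl2, Mrps26 and Mrpl57, which also rose, do not carry them. RefSeq promoters (GRCm38.p6, 250 bases before to 50 after the annotated start) were matched for 68 of the 77 genes. The letters AANATGGC, part of the sequence recognised by the transcription factor YY1, were found on either strand in 21 of the 68, or 30.9%, beside 10.5% of the promoters of 9231 tested genes and 6.96% of all 27025 promoters. In 16 of the 21 genes a match lay after the start, from 7 to 37 bases into the transcript, and in 11 it held the annotated start codon, whose ATG is itself part of the letters. Windows of 30 bases follow, 5′ to 3′ on the strand of the gene, with the matching letters in capitals. All but the last hold them after the start, and in Mrpl36 they lie before it in reverse complement.
Mrps24 (chr11:5707652-5707681, minus): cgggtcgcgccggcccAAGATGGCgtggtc
Mrps18a (chr17:46111004-46111033, plus): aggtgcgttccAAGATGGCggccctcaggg
Mrps27 (chr13:99344789-99344818, plus): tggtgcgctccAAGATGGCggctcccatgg
Mrps7 (chr11:115604147-115604176, plus): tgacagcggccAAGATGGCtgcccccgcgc
Mrps30 (chr13:118387219-118387248, minus): cgcggcgggcgAAAATGGCggcggccaggt
Mrpl35 (chr6:71823743-71823772, minus): aggcaggctgcAAGATGGCggcttccatct
Mrpl47 (chr3:32736724-32736753, minus): tctccattagaAACATGGCtgcgaccagtc
Mrpl36 (chr13:73330968-73330997, plus): cgtgaccttacGCCATCTTtcttcctggcg

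The list holds genes that rose, Mrpl47, which fell, and Mrpl35, which was not called, so the letters were not limited to one direction. The median log2 fold change was 0.50 for the 21 genes with these letters and 0.39 for the 47 without. Of these, 13 and 21 rose, beside 19.1% of all tested genes. A match is a description of the sequence and says nothing of binding.

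Letters of 2 other factors known for promoters of nuclear genes of mitochondria were also looked for on both strands. GCGCANGCG, a core of the NRF1 site, was found in 16 of the 68 promoters (23.5%, beside 16.2% of tested genes and 7.03% of all promoters). CCGGAAG, a core shared by ETS factors such as GABPA, was found in 25 (36.8%, beside 21.5% and 9.93%). Examples are printed for genes described below, with the letters in capitals.
Mrpl12, NRF1 letters in reverse complement (chr11:120484546-120484575, plus): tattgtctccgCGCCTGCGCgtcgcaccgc
Mrpl57, NRF1 letters (chr14:57826171-57826200, plus): atttgaatcctGCGCAGGCGcagaaggcgt
Mrpl32, NRF1 letters in reverse complement (chr13:14613042-14613071, minus): ggcggacttaaCGCATGCGCtcagcccgcg
Mrps18a, ETS letters (chr17:46110966-46110995, plus): cacacccctgctCCGGAAGcggaagtgcac
Mrps18b, ETS letters in reverse complement (chr17:35916391-35916420, minus): tgtcccgagcatgcgcagtcgctCTTCCGG
Mrps18c, ETS letters in reverse complement (chr5:100798591-100798620, plus): cgggtcacgtgaCTTCCGGcccgggaagcg

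The median log2 fold change was 0.46 with and 0.41 without the NRF1 letters, and 0.43 with and 0.39 without the ETS letters. With the correction for GC content and length the order turned, at 0.268 with and 0.275 without the NRF1 letters. For the ETS letters the corrected medians were 0.220 with and 0.278 without. For the YY1 letters the order stayed, at 0.397 with and 0.225 without. GGGCGG, a core of the SP1 site, was found in 34 of the 68 promoters, beside 70.8% of the promoters of tested genes and 38.2% of all promoters. AAGGTCA, recognised by ESRRA, was found in 4 (5.88%, beside 3.70% and 5.38%).

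Mrpl1 and Mrpl47 fell. Mrpl1, a protein of the mobile stalk beside the site where spent transfer RNAs leave (chromosome 5, 96209493 to 96266727), stood at 22.0 and 18.9 CPM in the not_extravasated and at 11.2 and 10.7 CPM in the extravasated libraries. Both extravasated libraries were below both others. The log2 fold change was -0.90 ± 0.192 (SE, adjusted p = 0.00840), or 1.86-fold lower. Mrpl47, the counterpart of a bacterial protein at the tunnel exit (chromosome 3, 32725397 to 32737605), stood at 18.7 and 17.9 CPM against 11.5 and 12.0 CPM, a log2 fold change of -0.64 ± 0.185 (SE, adjusted p = 0.0258). Neither gene passed the test without extravasated_1 (-0.83 and -0.51, adjusted p = 0.0610 and 0.180) or without extravasated_2 (-0.82 and -0.63, adjusted p = 0.0838 and 0.148).

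The next lowest log2 fold changes were not called. Mrps31 stood at -0.42, from 28.1 and 26.4 CPM to 20.4 and 20.5 CPM, and Mrpl32, a zinc-binding protein that is cut by the m-AAA protease before it joins the ribosome, at -0.39, from 34.6 and 30.6 CPM to 25.6 and 24.2 CPM. For both genes the groups did not overlap (adjusted p = 0.0687 and 0.0812). Mrpl32 passed the threshold without not_extravasated_2, at -0.47 (adjusted p = 0.0481). Mrps22, Mrpl50, Mrpl13 and Mrps33 had log2 fold changes of -0.23, -0.17, -0.17 and -0.07 with adjusted p from 0.260 to 0.785, and the groups overlapped for Mrpl50 and Mrps33.

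By place in the ribosome, all 3 genes assigned to the stalk that recruits translation factors rose, beside 19.1% of all tested genes. Mrpl12, the stalk protein itself (chromosome 11, 120484613 to 120489065), stood at 185.9 and 192.2 CPM against 309.2 and 307.5 CPM. The libraries of a group were nearly equal and the groups were far apart, at a log2 fold change of 0.71 ± 0.114 (SE, adjusted p = 0.00312). Mrpl10, the stalk base to which it binds, rose from 51.2 and 40.5 CPM to 74.6 and 82.3 CPM (0.78), and Mrpl11 from 24.2 and 24.2 CPM to 35.0 and 38.5 CPM (0.60). Mrpl11 was not called without extravasated_2 (0.57, adjusted p = 0.111).

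In the central protuberance, the crest of the large subunit that contacts the small subunit, 5 of 7 genes rose with a median of 0.47. They included Mrpl58, a ribosome-bound peptidyl-tRNA hydrolase, which stood at 40.9 and 42.6 CPM against 59.2 and 64.9 CPM (0.57, adjusted p = 0.0131, and 0.0956 without extravasated_2). Mrpl40, Mrpl27, Mrpl38 and Mrpl48 rose by 0.53, 0.50, 0.47 and 0.43, while Mrpl46 and Mrpl18 were not called at 0.33 and 0.15. Around the tunnel exit, of 8 genes Mrpl17 rose (0.41), Mrpl47 fell and 6 were not called, with a median of 0.22. Beside these counts stand 19.1% called higher and 25.9% lower over all tested genes. The shares at the tunnel exit, 12.5% and 12.5%, were below both. The difference between these sites was not tested.

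In the small subunit, Mrps12, a protein of the decoding centre, stood at 41.6 and 40.2 CPM against 71.2 and 69.9 CPM, a log2 fold change of 0.79 ± 0.132 (SE, adjusted p = 0.00352). Mrps27, which has RNA-binding pentatricopeptide repeats, rose from 34.7 and 31.0 CPM to 51.1 and 56.1 CPM (0.71, adjusted p = 0.00767, and 0.0625 without extravasated_2). Mrps35 missed the threshold at 0.37, from 50.6 and 50.1 CPM to 62.5 and 67.4 CPM (adjusted p = 0.0534), and passed it with RLE factors (adjusted p = 0.0468). Mrpl30 of the large subunit, at 0.27, was not called.

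A protein's name does not always match its subunit. In the structure of the mammalian mitoribosome Mrps18a and Mrps30 lie in the large subunit, and Mrps36 belongs to the 2-oxoglutarate dehydrogenase complex. With these assignments 29 of 50 large subunit genes rose and 2 fell (median 0.45), and 11 of 26 small subunit genes rose (median 0.35). Over all tested genes, 19.1% were called higher and 25.9% lower. Mrps30 stood at 34.6 and 38.2 CPM against 50.1 and 47.0 CPM, and rose by 0.41 (adjusted p = 0.0483). Its call ended with library totals, DESeq2 or limma-voom (adjusted p = 0.0999, 0.0600 and 0.0514) and without not_extravasated_1, extravasated_1 or extravasated_2 (adjusted p = 0.117, 0.132 and 0.135). Mrps36 stood at 21.1 and 28.9 CPM against 29.4 and 27.3 CPM, with overlapping groups, and was not called at 0.18.

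The 3 genes of the Mrps18 family, which encode different mitochondrial versions of 1 bacterial protein, did not all pass the test. Mrps18a rose by 1.02, as given above. Mrps18b (chromosome 17, 35910379 to 35916389) stood at 50.7 and 36.3 CPM against 63.6 and 70.4 CPM and rose by 0.63 ± 0.183 (SE, adjusted p = 0.0268), with adjusted p = 0.0523 without not_extravasated_2 and 0.123 without extravasated_2. Mrps18c (chromosome 5, 100798627 to 100804471) stood at 5.38 and 5.79 CPM against 4.92 and 6.53 CPM. Its extravasated libraries lay on both sides of the others, at 0.04 ± 0.276 (SE, adjusted p = 0.917), and the fold was negative with library totals without scaling (-0.02). The differences between the 3 genes were not tested.

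By origin, of 48 genes with a bacterial counterpart, 24 rose and 2 fell with a median of 0.41. Of 29 found only in mitochondria, 16 rose and 0 fell with a median of 0.41. Beside these counts stand 19.1% called higher and 25.9% lower over all tested genes. The difference between the origins was not tested.

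Mrps11 and Mrpl46 lie head to head on chromosome 7, Mrps11 on the plus strand from 78783119 to 78792989 and Mrpl46 on the minus strand from 78775236 to 78783531. Mrps11 rose from 17.8 and 18.1 CPM to 31.4 and 31.5 CPM (0.81, adjusted p = 0.00631). Mrpl46 stood at 40.8 and 42.9 CPM against 51.4 and 54.1 CPM and was not called (0.33, adjusted p = 0.0819). Their exons overlap on opposite strands over 8.0% of the bases of Mrps11 and 12.2% of those of Mrpl46, and the strand setting of the counting is not given in the sources used here.

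Levels of different genes were compared per kilobase of the principal annotated transcript. On this scale Mrpl42 was highest, at 252 CPM per kb in the not_extravasated and 260 CPM per kb in the extravasated libraries on average, followed by Mrpl12 at 144 and 234 CPM per kb and Mrps23 at 112 and 137 CPM per kb. Mrpl42 was not called (log2 fold change 0.05) and its libraries overlapped, from 235 to 268 CPM per kb in not_extravasated and from 233 to 288 in extravasated. The lowest levels were those of Mrps14, at 4.13 and 5.34 CPM per kb, Mrpl47, at 5.43 and 3.49, and Mrpl1, at 5.95 and 3.19. The genes that fell were among the least abundant per length, and the transcripts used for Mrpl1 and Mrpl47 were long, at 3431 and 3364 nucleotides.

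**Figure D2:**
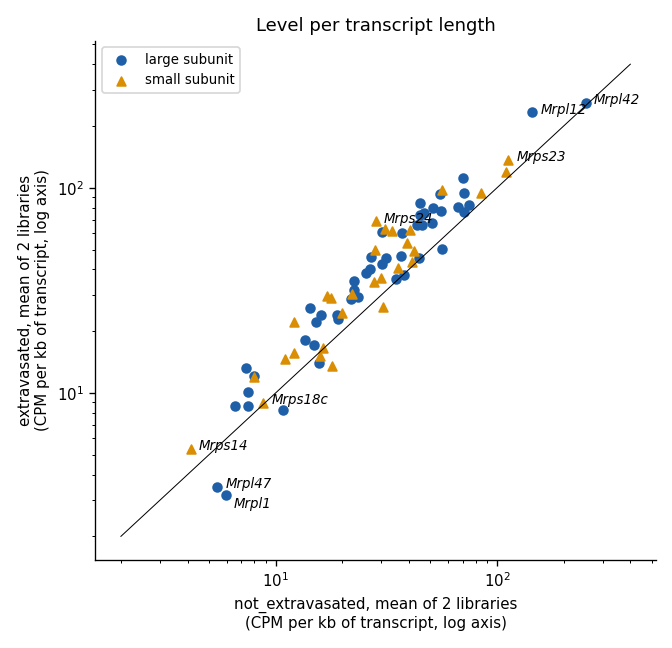
Mean level per kilobase of transcript of the 77 genes in the not_extravasated (horizontal) and extravasated libraries (vertical), both on log axes, with the line of equality. Most points lie above the line; Mrpl1 and Mrpl47 lie below it at the low end and Mrpl42 on it at the high end.

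Fold changes of mitoribosomal genes followed the GC content of their transcripts. Across the 77 genes Spearman's rho between log2 fold change and GC content was 0.61, beside 0.74 across 11126 coding genes. It was -0.12 with transcript length, and GC content and length were themselves related at -0.61. These are descriptions across genes, which share the 4 libraries. In the tertile of genes with the lowest GC content (39.6 to 48.2%) 9 of 26 rose and 2 fell with a median of 0.19, in the middle tertile 12 of 25 rose with a median of 0.41, and in the highest tertile (52.6 to 60.6%) 19 of 26 rose with a median of 0.63. All 26 genes of the highest tertile had both extravasated libraries above both others. Over all tested genes, of any GC content, 19.1% were called higher and 25.9% lower, and 37.3% had both extravasated libraries above both others. The shares over all genes of similar GC content were not computed. Mrpl1 and Mrpl47 have 41.4% and 45.3% GC. The median GC content of the 77 genes (50.1%) was close to that of all coding genes (50.4%), while their transcripts were shorter, with a median of 1316 against 3037 nucleotides.

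When the trend with GC content and length over all genes was removed by an offset, 21 of the 77 genes were called higher and 0 lower, beside 8.17% and 5.79% of all tested genes. The large subunit then had 13 genes called higher and a median of 0.23, and the small subunit 8 and a median of 0.30. Of the 40 genes that rose without the offset, 13 were called with it. The corrected calls lay at the other end of the GC range: 16 were in the lowest GC tertile and 0 in the highest, and 20 of the 21 had transcripts of at least 1962 nucleotides. Across the 77 genes the corrected fold change had a rho of -0.63 with GC content and 0.72 with length, so the sign of the relation with GC content turned. Without not_extravasated_1 the corrected counts were 34 higher and 2 lower, beside 16.2% and 12.1% of all genes, and without not_extravasated_2 they were 23 and 1, beside 10.4% and 7.24%. Without extravasated_1 they were 13 and 0, beside 0.86% and 0.728%. Without extravasated_2 the number called higher was 0 with edgeR, as it was over all genes, of which 2095 had an unadjusted p under 0.05.

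**Figure D3:**
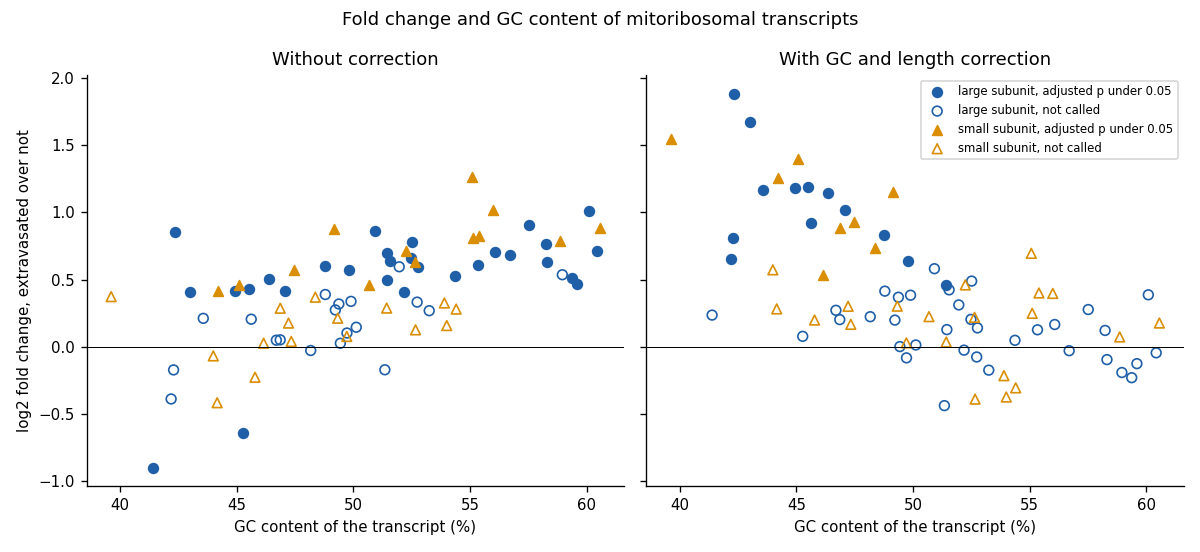
Log2 fold change (vertical) against GC content of the transcript (horizontal) for the 77 genes, without correction (left) and with the GC and length correction (right); filled symbols passed an adjusted p of 0.05, circles are large and triangles small subunit genes. Filled symbols gather at high GC content on the left and at low GC content on the right.

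The correction changed which genes were called. Mrps24 (0.70), Mrps18a (0.40), Mrpl4 (0.39), Mrpl2 (0.28), Mrps34 (0.18), Mrpl36 (0.58), Mrpl12 (0.17), Mrps12 (0.07), Mrps18b (0.22) and Mrps27 (0.46) lost their call. Mrpl57 (1.88), Mrps30 (1.25), Mrps26 (1.15), Mrpl11 (0.83) and Mrpl58 (0.64) kept it, all with annotated transcripts of 2596 nucleotides or more. None of these genes was called under all 4 corrections given below, and Mrpl11 was not called with the coding sequence. Mrpl1 and Mrpl47 turned to 0.24 and 0.08 and were not called. Mrpl50 and Mrpl32, below 0 without the offset, were called higher at 0.81 and 0.66, and Mrps35 was called higher at 0.74.

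The pattern by site and origin also moved with the correction. Of the 3 stalk genes 1 was called higher with the GC and length correction and 0 with the coding sequence correction. The shares over all tested genes were 8.17% and 14.5%. In the central protuberance 2 of 7 were called higher with the GC and length correction, beside 8.17% of all tested genes. The median there went from 0.47 to 0.05, below that of the tunnel exit, which went from 0.22 to 0.15. The order of these medians was therefore opposite to that without correction. Genes with a bacterial counterpart then had a median of 0.22, with 11 of 48 called higher. Those found only in mitochondria had a median of 0.31, with 10 of 29 called higher, beside 8.17% of all tested genes.

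The count also depended on how length was defined. With GC content alone 37 genes were called higher and 0 lower, with a median of 0.46, beside 9.72% and 8.04% of all tested genes. With the longest annotated transcript the counts were 22 and 1, the 1 being Mrpl13 at -0.47, beside 8.08% and 5.46%. With the coding sequence alone, chosen after seeing the data, they were 16 and 0 with a median of 0.29, beside 14.5% and 10.5%, and 7 of the 16 were in the tertile with the longest transcripts. Over these 4 corrections and the uncorrected test, 3 genes were called higher each time. They were Mrpl15, from 99.6 and 89.6 CPM to 129.8 and 138.5 CPM (0.50), Mrpl48, from 33.3 and 31.0 CPM to 42.2 and 44.5 CPM (0.43), and Mrpl19, from 71.4 and 64.3 CPM to 93.2 and 88.0 CPM (0.42). Mrpl35 and Mrpl3 were called under all 4 corrections and not without one, and 15 genes, Mrpl12, Mrps12 and Mrps34 among them, were called without correction only.

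**Figure D4:**
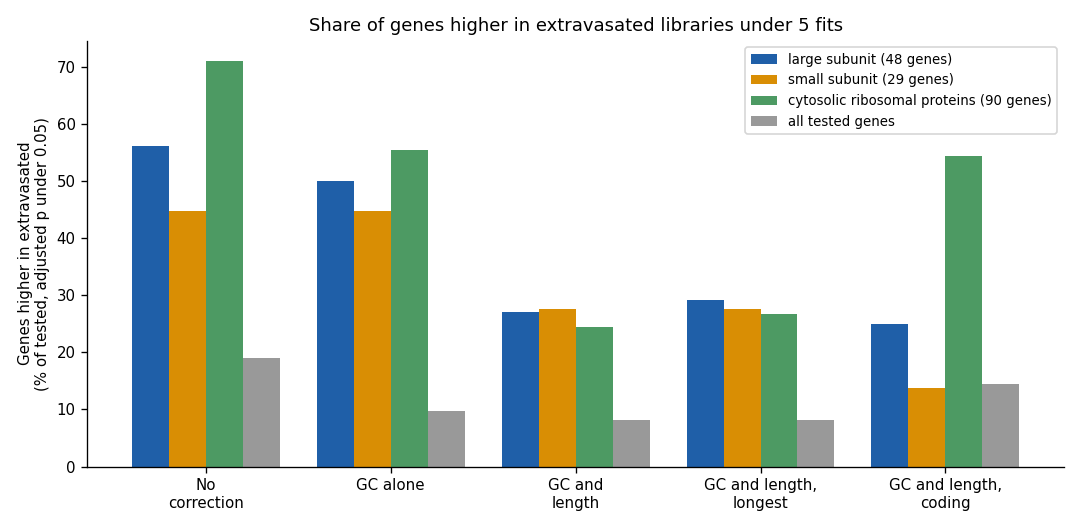
Share of tested genes called higher in the extravasated libraries (vertical, % at an adjusted p under 0.05) for large subunit, small subunit and cytosolic ribosomal protein genes and for all tested genes, under 5 fits (horizontal). The share of all tested genes runs from 8.08% to 19.1%, below that of the large subunit under every fit shown; the small subunit, with 4 of 29 genes under the coding sequence fit, is below it there.

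Other genes of mitochondrial translation were taken from a list. Of 63 further genes for mitoribosome assembly, translation factors, messenger RNA handling and protein processing, 21 rose and 13 fell (median log2 fold change 0.28), or 33.3% and 20.6%, beside 19.1% and 25.9% of all tested genes. There are 5 subunits without the Mrp name, of which Dap3 (0.56), Gadd45gip1 (0.60) and Aurkaip1 (0.58) rose, and Ptcd3, a pentatricopeptide protein of the small subunit, fell from 148.3 and 102.9 CPM to 69.5 and 55.7 CPM , 2.01-fold lower (adjusted p = 0.00857). Both mitochondrial ribosomal RNAs, looked at after the values were known, were higher: mt-Rnr1 stood at 120.9 and 141.2 CPM against 173.8 and 196.8 CPM, and mt-Rnr2 at 403.2 and 566.7 CPM against 712.7 and 914.9 CPM. Their log2 fold changes were 0.50 and 0.75 (adjusted p = 0.0217 and 0.0233), measured in libraries selected for polyA.

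Of 15 translation factors 3 rose and 3 fell, shares near those over all tested genes. Tufm, the elongation factor that brings transfer RNAs, rose (0.60), while Guf1, a back-translocase, Mtif2, the initiation factor, and Mtrf1l, a release factor, fell (-1.46, -1.33 and -1.08). Of 25 assembly genes 10 rose and 3 fell, or 40% and 12%, beside 19.1% and 25.9% of all tested genes. With the GC and length correction 2 of the 25 (8%) were called higher, beside 8.17%. Rbfa, which matures the small subunit RNA, and Trub2, a pseudouridine synthase, rose (0.87 and 0.71), and the GTPase Gtpbp10 and Mterf3, a factor of mitochondrial transcription and ribosome assembly, fell (-1.34 and -1.12).

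Of 6 genes for messenger RNA handling 2 rose and 2 fell, or 33.3% each, beside 19.1% and 25.9% of all tested genes. Tbrg4 and Ptcd1 rose (0.88 and 0.56). Lrpprc, which stabilises mitochondrial messenger RNAs, and Mtpap, the mitochondrial polyA polymerase, fell (-0.85 and -0.93). Of 12 genes for processing, quality control and transcription 3 rose and 4 fell, near the shares over all tested genes. Clpp, a protease, and Polrmt, the mitochondrial RNA polymerase, were higher (0.75 and 0.75). Clpx, the partner of Clpp, and the protease Yme1l1 were lower (-0.88 and -1.43). With the GC and length correction 6 of the 63 genes were called higher and 0 lower, beside 8.17% and 5.79% of all tested genes. Of the 21 genes that rose without correction, 2 were among the 6, Dap3 (0.69) and Trub2 (0.65), so the other named rises lost their call, Tufm (0.12), Rbfa (0.28), Tbrg4 (0.44), Ptcd1 (0.19), Clpp (0.11) and Polrmt (0.35) among them. The named falls lost theirs too, with Mtrf1l at -0.70, Mtif2 at -0.56, Guf1 at -0.41 and Gtpbp10 at -0.16. With the coding sequence correction 16 of the 63 genes were called higher and 1 lower, beside 14.5% and 10.5% of all tested genes. Of those 16, 5 had also risen without correction. The 1 called lower was Mtrf1l (-1.04, adjusted p = 0.0175). Without extravasated_2, and with no correction, 3 of the 63 genes were called higher and 4 lower, beside 4.29% and 10.5% of all genes.

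Cytosolic ribosomal proteins and complex I, other large assemblies of short-transcript genes, are given beside the mitoribosome without a test of the difference. Of 90 cytosolic ribosomal protein genes 64 rose and 4 fell with a median of 0.55, and with the correction 22 were called higher with a median of 0.23. Of 36 nuclear complex I subunit genes 19 rose and 1 fell with a median of 0.44, and with the correction 6 were called higher and 2 lower and the median was 0.09. Of all tested genes 19.1% were called higher and 25.9% lower without correction, and 8.17% and 5.79% with it. With the coding sequence correction 49 cytosolic and 9 complex I genes were called higher, and 2 and 3 lower, beside 14.5% and 10.5%. With GC content alone 50 and 14 were called higher and 0 lower in either set, beside 9.72% and 8.04%. Without extravasated_2 the uncorrected numbers called higher were 33 and 5, beside 4.29% of all genes.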

How the data were processed

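The deposited table held raw read counts per gene made by the authors, whole numbers with no normalization, from libraries of a stranded TruSeq mRNA kit per the labels' protocols. Per the submitters' processing notes, bcl2fastq 2.18.0.12, STAR 2.5.3a and the build GRCm38 were used. The counter, annotation release, strand setting and filters are not given in the sources used here, so genes that overlap others are uncertain. The whole table was fitted in R 4.3.3 with edgeR 4.0.16. Genes passed filterByExpr (minimum count 10, total 15), libraries were scaled by TMM, and groups were compared without covariates by the robust quasi-likelihood test (two-sided), with Benjamini-Hochberg adjusted p-values over 12320 genes and a threshold of 0.05. Levels are TMM-scaled CPM. In the GC and length correction, each library's deviation of log2 CPM (prior count 2) was smoothed against transcript GC content and log2 length (mgcv 1.9.3, basis size 10) and entered as an offset, without mitochondrially encoded genes. The transcript was the principal coding one of a GRCm38 annotation, whose identifiers matched 53360 of 53465 genes, and these cells may express another. The alternatives were RLE factors, library totals, DESeq2 1.42.0, limma-voom (limma 3.58.1), other expression filters, the kind of title suffix as a term, other definitions of length, and leaving out each library. The code was tested on simulated data, in 5 simulations with 200 changed genes each. These held no trend with GC content or length and were fitted without correction. They therefore say nothing of the corrected fits or of data with such a trend.

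The genes, the lists of other genes and markers, the ribosomal sites and the tests were chosen with earlier results of these data known. Genes described one by one were the 8 highest and 8 lowest log2 fold changes, 12 members taken whatever their values, and for each list of other genes the 4 smallest adjusted p; Mrpl3, Mrpl10, Mrpl15, Mrpl19, Mrpl35, Mrpl42, Mrpl44, Mrpl46, Mrpl48, Mrps7, Mrps11, Mrps14, Mrps23 and those named by ribosomal site were added after their values were seen. The factor Mtrfr was not analysed here. Protein sequences were not used here.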

Additional observations from a re-analysis of the deposited data

How the results depend on the processing

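The number of mitoribosomal genes called higher (40) stayed between 32 and 42 under RLE factors, library totals, DESeq2, limma-voom, both other expression filters and the title suffix term (41), and the number called lower (2) between 2 and 3. It was 37 with GC correction alone, 21 with GC and length correction, 22 with the longest transcript and 16 with the coding sequence, chosen after seeing the data. Of all tested genes 9.72%, 8.17%, 8.08% and 14.5% were called higher with these corrections, and 8.04%, 5.79%, 5.46% and 10.5% lower. Under the settings without correction named above, 1943 to 2632 of 12320 to 21049 genes tested were called higher, and 2980 to 3576 lower. Calls over all genes also fell when extravasated_1 or extravasated_2 was left out, with and without the correction. The number of mitoribosomal genes called lower was 0, 0, 1 and 0 under GC alone, GC and length, longest transcript and coding sequence. Leaving out each library gave 11 to 40 higher and 0 to 3 lower, and 0 to 34 and 0 to 2 with the correction; the lone library of a group is then assumed to vary like the other group. The large subunit median (0.45) was 0.23, 0.22 and 0.27 with GC and length, longest transcript and coding sequence, ran from 0.42 to 0.62 without each library, and from 0.19 to 0.32 with the correction. The small subunit median (0.37) was 0.31 with library totals, 0.30, 0.26 and 0.30 with the same corrections and 0.47 with GC alone, and ran from 0.35 to 0.47, and from 0.23 to 0.41 with the correction. Other pathway genes called higher (21) numbered 6, 6 and 9 with GC and length, longest transcript and GC alone, 3 to 23 without each library, and 0 to 13 with the correction; those called lower (13) numbered 0, 0, 0 and 1 with the coding sequence last, then 4 to 13 and 0 to 4. Cytosolic ribosomal protein genes called higher (64) numbered 22 and 24, 33 to 65 and 0 to 28 (8 without extravasated_1). Complex I genes (19) numbered 6, 7 and 9 with GC and length, longest transcript and coding sequence, 5 to 19 and 0 to 9.

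The direction of several low or uncalled genes turned with the correction. In the order GC and length, longest transcript, GC alone and coding sequence, the log2 fold change was 0.57, 0.54, 0.84 and 0.081 for Mrps33, 0.81, 0.78, 0.95 and 0.49 for Mrpl50, 0.20, 0.16, 0.44 and 0.44 for Mrps22, 0.66, 0.62, 0.73 and 0.14 for Mrpl32, 0.28, 0.25, 0.47 and 0.26 for Mrps31, 0.078, 0.032, 0.10 and 0.21 for Mrpl47, and 0.24, 0.21, 0.29 and 0.20 for Mrpl1. Mrpl13 turned to 0.33 with the coding sequence. With the GC and length correction and without not_extravasated_1, not_extravasated_2, extravasated_1 or extravasated_2 in turn, it was 0.58, 0.58, 0.64 and 0.54 for Mrps33, 0.92, 0.72, 0.72 and 0.92 for Mrpl50, 0.22, 0.20, 0.23 and 0.21 for Mrps22, 0.62, 0.70, 0.63 and 0.69 for Mrpl32, 0.28, 0.32, 0.37 and 0.23 for Mrps31, 0.084, 0.10, 0.20 and -0.03 for Mrpl47, and 0.18, 0.29, 0.18 and 0.29 for Mrpl1. Uncorrected and without each library it ran from -0.14 to 0.0077 for Mrps33, -0.38 to 0.075 for Mrpl50, -0.028 to 0.43 for Mrps36 and -0.15 to 0.32 for Mrps18c. Mrps18c was -0.020 with library totals and -0.23 with the correction and without extravasated_2. The causes were not tested. With 2 libraries in each group, no spread beyond these libraries can be estimated.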
